A study of Homo sapiens with 10 samples.

Results

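The genes described here are 60 histone genes of SH-SY5Y cells, an established human neuroblastoma line, measured on exon arrays. They are the genes whose symbol begins with H1-, H2AC, H2BC, H3C, H4C or H3- followed by a digit, together with H2AX, H2AZ1, H2AZ2, MACROH2A1 and MACROH2A2, wherever 1 row of the deposited table carried that symbol alone. They stand among 14232 genes with such a row and 22011 rows in all. Of the 60 genes, 51 are replication-dependent genes of the histone clusters, 8 are variants and 1 is a pseudogene, H1-9P. Another 44 RefSeq symbols match the names, of which 12 appear only in rows shared by several symbols and 32 in no annotated row.

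The arrays fall into 2 groups. The first holds 5 arrays of cells treated with paraquat, numbered 8, 12, 14, 18 and 20 in the sample titles. The second holds 5 arrays of untreated cells, labelled ctrl and numbered 7, 11, 13, 17 and 19. The labels name no genetic change in either group, and for paraquat, a redox-cycling herbicide, dose and duration were not given in the sources used here. Whether the 5 samples of each kind were grown separately is not in the labels, and p-values then measure only the spread between samples, which may be technical. Values are log2 expression values that the authors made with RMA, a method that corrects background, gives all arrays 1 distribution and combines each row's probes. Per-array values below run in the numerical order just given.

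Histones are the proteins around which DNA is wound. H2A, H2B, H3 and H4 form the core of the nucleosome, and H1 binds the linker between nucleosomes. Replication-dependent histone genes are clustered, have no introns, and are transcribed mainly in S phase, when newly made DNA must be packaged. Their messenger RNAs end in a stem-loop in place of a poly(A) tail and are bound there by SLBP. Variant genes lie outside the clusters, mostly give polyadenylated messages, and are expressed through the cell cycle. In a dividing cell line replication-dependent messages are abundant, and the labelling protocol names depletion of ribosomal RNA and no selection of polyadenylated RNA.

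The replication-dependent genes fell widely. Of 51 measured, 40 were lower in paraquat-treated cells and 0 higher at an adjusted p under 0.05 (limma over all 22011 rows, Benjamini-Hochberg), where 11.5% of all rows were called lower and 8.51% higher. At an unadjusted p under 0.05 the counts were 42 lower (17.1% of all rows) and 1 higher, H4C16 (13.6% of all rows). Their median log2 change was -1.03, against 0.00 over all rows, and 26 of the 51 were at least 2-fold lower (1.83% of all rows). With a minimum fold of 1.2 built into the test, 26 of the 51 were lower (4.15% of all rows). In 35 of the 51 every paraquat array lay below every ctrl array (9.22% of all rows). Of the 8 variants, 3 were lower and 0 higher, with a median of -0.27 and none at least 2-fold lower. The pseudogene H1-9P had a change of -0.04 (adjusted p = 0.891).

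**Figure D1:**
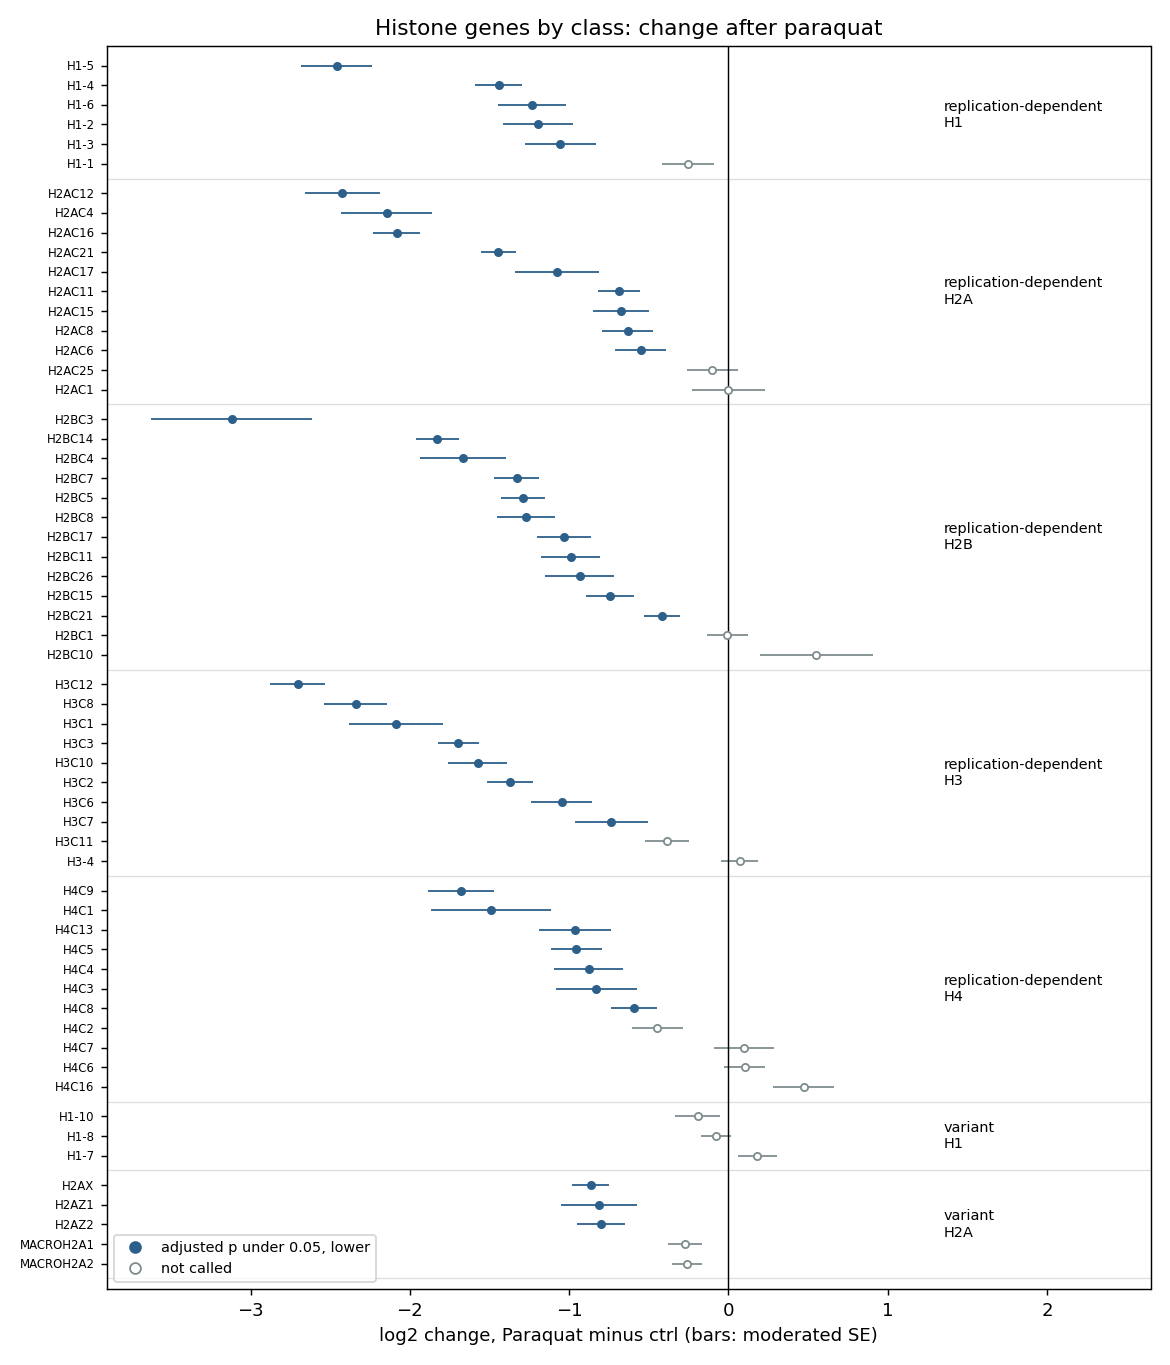
Log2 change, paraquat minus ctrl, of 59 histone genes (horizontal axis, bars are moderated standard errors of the limma model), grouped by class and by replication-dependent or variant type. Filled points were called lower. The replication-dependent genes reach from -3.12 for H2BC3 to 0.55 for H2BC10, while the variants stay between -0.87 and 0.18.

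In a bulk sample fewer S phase cells and less histone RNA per cell cannot be told apart. Among 21 measured genes of S phase and proliferation 18 were lower (11.5% of all rows) and 1 was higher (8.51% of all rows), with a median of -0.69. Their array means lay between 8.57 and 9.003 in paraquat-treated cells and between 9.35 and 9.71 in ctrl cells, so the groups did not overlap. MKI67, a marker of cycling cells, fell by 2.38 ± 0.19 on the log2 scale (SE, adjusted p = 8.52e-06), and RRM2, a ribonucleotide reductase subunit, fell by 1.72 ± 0.20 (adjusted p = 0.000164). The member that rose was CDKN1A, a cyclin-dependent kinase inhibitor (2.47 ± 0.11, adjusted p = 1.98e-07). The part of this movement in the histone result was not tested.

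The linker histones H1-1 to H1-6 compact the chromatin fibre. Of these 6, 5 were lower (11.5% of all rows), with a median of -1.21. H1-5 (transcript cluster 2947073) stood at 9.49, 8.75, 9.16, 8.59 and 8.48 in paraquat-treated cells, against 11.12, 11.93, 11.54, 11.13 and 11.06 in ctrl cells. Every paraquat array was below every ctrl array, by a mean of 5.50-fold (log2 change -2.46 ± 0.22 SE, adjusted p = 2.6e-05). H1-4 (2899171), the brightest H1 row, read 11.57, 10.91, 11.20, 10.87 and 10.69 in paraquat-treated cells and 12.54, 12.56, 12.49, 12.49 and 12.37 in ctrl cells. The ctrl values of H1-4 were nearly alike (12.49 ± 0.07, SD, n = 5), whereas the paraquat values spread more widely (11.05 ± 0.34), and the groups were apart (-1.44 ± 0.15 SE, adjusted p = 6.02e-05). H1-2 and H1-3, also somatic linker histones, fell by 1.19 and 1.06. H1-6, a linker histone known from testis, was called lower at dim levels (3.39 ± 0.35 after paraquat and 4.62 ± 0.40 in ctrl cells). H1-1 had a change of -0.25 (adjusted p = 0.353), with means of 3.99 and 4.24.

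H2A and H2B pair as dimers in the nucleosome. Of 11 replication-dependent H2A genes, 9 were lower (11.5% of all rows), with a median of -0.69. H2AC12 (2899772) read 7.76, 7.27, 8.00, 6.76 and 7.27 in paraquat-treated cells, against 9.94, 10.31, 9.79, 9.80 and 9.35 in ctrl cells. The groups were apart by more than 1 log2 unit at their nearest arrays, and the mean was 5.37-fold lower after paraquat (-2.42 ± 0.23 SE, adjusted p = 4.14e-05). H2AC4 (2946219) stood at 7.68, 6.99, 7.50, 6.75 and 6.70 in paraquat-treated cells and at 9.54, 10.10, 9.07, 9.12 and 8.53 in ctrl cells (-2.15 ± 0.29 SE, adjusted p = 0.000355). H2AC21 (2434129), the brightest of all the histone rows, read 12.08, 11.88, 11.77, 11.83 and 11.86 after paraquat, against 13.33, 13.57, 13.14, 13.48 and 13.12 in ctrl cells. Both its groups were tight, and it fell 2.72-fold (-1.44 ± 0.11 SE, adjusted p = 6.92e-06). The other H2A members called lower lay between -2.08 (H2AC16) and -0.55 (H2AC6). H2AC25 did not pass at a level well above the dim rows (9.35 ± 0.15 and 9.45 ± 0.35 SD, change -0.10, adjusted p = 0.745), nor did the germ cell gene H2AC1 (change 0.00, adjusted p = 0.999).

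Of 13 H2B genes, 11 were lower (11.5% of all rows), with a median of -1.03. H2BC3 (2946225) had the lowest change of all members with every array in the fit, and a wide spread. Without Paraquat 18 its change was -2.63, and that of H3C12, at -2.73, was lower. It read 4.84, 5.12, 5.40, 2.60 and 4.84 in paraquat-treated cells, against 7.47, 8.91, 7.44, 7.26 and 7.31 in ctrl cells. Paraquat 18 lay far below its group and ctrl 11 far above its own, yet the groups did not overlap (-3.12 ± 0.51 SE, adjusted p = 0.0013), and the change stayed between -3.33 and -2.63, past the threshold, in all 17 other settings tried. H2BC14 (2900059) was the brightest H2B row, with 11.20, 10.42, 10.76, 11.05 and 10.81 after paraquat and 12.65, 12.78, 12.52, 12.64 and 12.79 in ctrl cells. Its ctrl arrays were close (12.67 ± 0.11, SD, n = 5), and the fall was 3.55-fold (-1.83 ± 0.14 SE, adjusted p = 6.75e-06). H2BC21, called at the smallest change in the class (-0.42), is known in other cells to give a polyadenylated message as well. H2BC1, a testis H2B, and H2BC10 did not pass, with changes of -0.01 and 0.55 at mean levels under 3.

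H3 carries many of the modified lysines of the nucleosome tail. Of 10 H3 genes, 8 were lower (11.5% of all rows), and the class median of -1.47 was the lowest of the 5. H3C12 (2947095) read 7.02, 6.24, 7.14, 6.94 and 6.79 in paraquat-treated cells, against 9.66, 9.86, 9.35, 9.48 and 9.32 in ctrl cells. No paraquat value came within 2 log2 units of a ctrl value, and H3C12 was 6.52-fold lower (-2.70 ± 0.17 SE, adjusted p = 2.1e-06). H3C8 (2946369) stood at 6.95, 6.37, 6.65, 6.28 and 6.21 after paraquat and at 8.78, 9.48, 8.70, 8.76 and 8.44 in ctrl cells (-2.34 ± 0.20 SE, adjusted p = 1.53e-05). The brightest H3 row behaved otherwise. H3C11 (2947077) read 12.25, 11.59, 12.00, 11.89 and 11.93 after paraquat, against 12.46, 12.62, 12.16, 12.17 and 12.18 in ctrl cells, and did not pass (-0.38 ± 0.14 SE, adjusted p = 0.0739). Paraquat 8 lay above 3 of the ctrl arrays, and without it H3C11 was called lower (-0.46, adjusted p = 0.0357). H3-4, a testis H3 gene, had a change of 0.07 (adjusted p = 0.756).

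H4 is the core histone with the fewest sequence variants. Of 11 H4 genes, 7 were lower (11.5% of all rows), with a median of -0.83. At least 2-fold lower were 2 of them (1.83% of all rows). H4C9 (2899768) read 6.36, 6.42, 6.46, 5.82 and 5.57 in paraquat-treated cells, against 7.84, 8.31, 7.44, 7.58 and 7.84 in ctrl cells (-1.68 ± 0.21 SE, adjusted p = 0.000228). Its groups were apart. H4C1 (2899095) was more variable, with 7.92, 7.66, 6.94, 6.01 and 7.01 after paraquat and 9.19, 9.35, 7.96, 8.27 and 8.22 in ctrl cells (-1.49 ± 0.38 SE, adjusted p = 0.0162). Its nearest arrays, Paraquat 8 and ctrl 13, almost met. H4C13 (2947081), the brightest H4 row, stood at 11.63, 11.22, 10.94, 10.66 and 10.83 in paraquat-treated cells and at 12.19, 12.64, 11.86, 11.94 and 11.48 in ctrl cells, so that Paraquat 8 overlapped ctrl 19 (-0.96 ± 0.23 SE, adjusted p = 0.0117). The 4 H4 genes that did not pass were H4C2 (-0.45, adjusted p = 0.0774, and called lower without ctrl 19), H4C6 (0.10, adjusted p = 0.67), H4C7 (0.10, adjusted p = 0.794) and H4C16 (0.47, adjusted p = 0.112). H4C16 lies on chromosome 12, outside the large clusters. It read 5.44, 5.90, 5.55, 5.48 and 5.23 after paraquat, against 4.84, 5.71, 5.13, 4.81 and 4.76 in ctrl cells, and without ctrl 11 it was called higher (0.64, adjusted p = 0.00792).

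**Figure D2:**
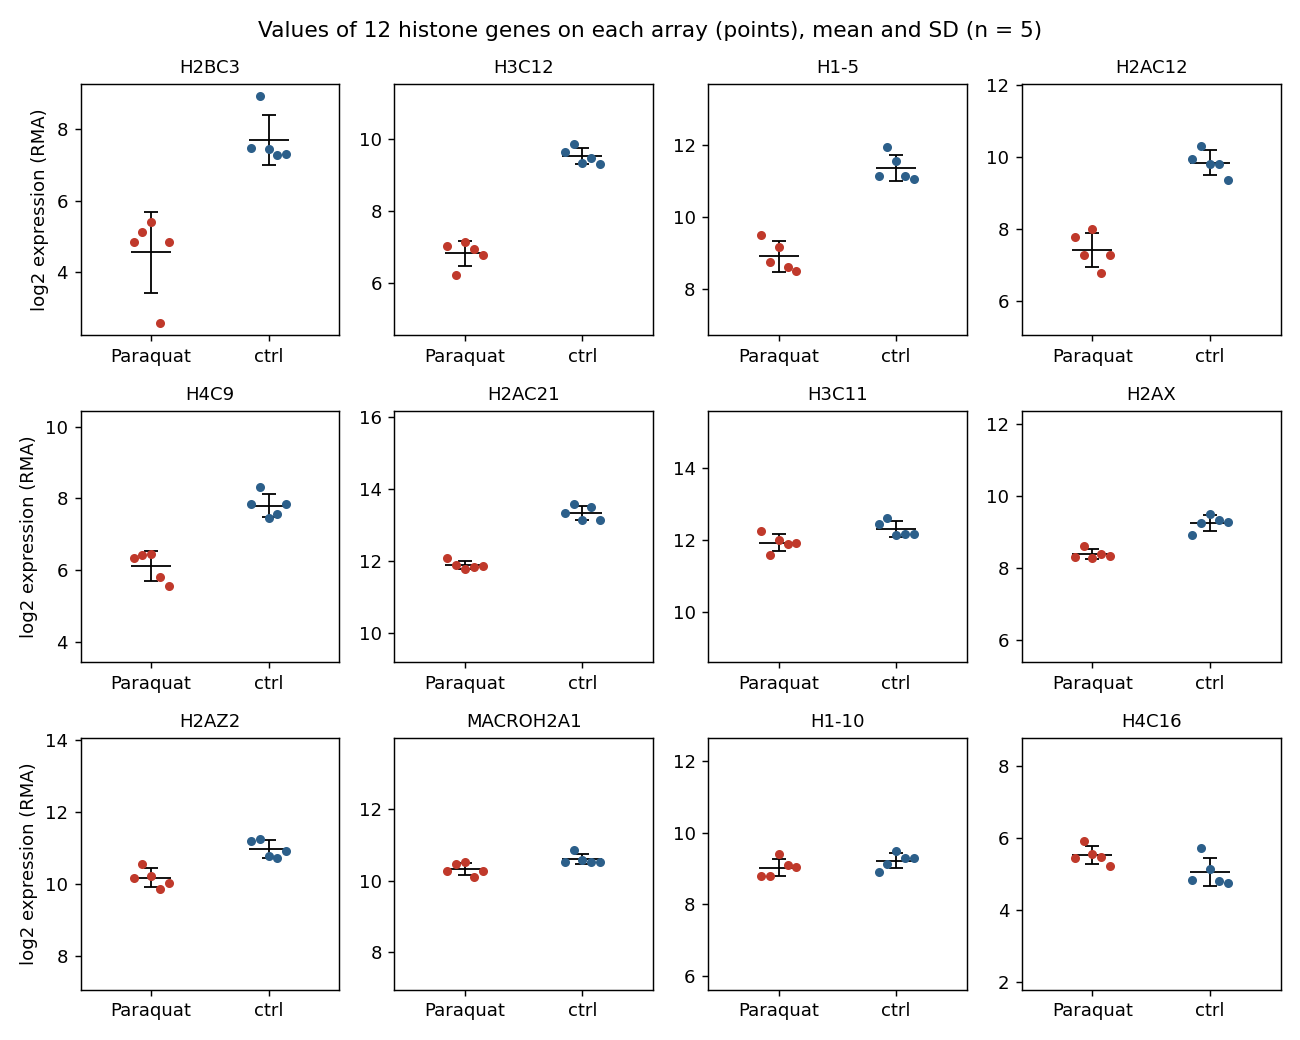
Log2 expression of 12 histone genes on each array, with paraquat arrays left and ctrl arrays right in every panel, which all span 7 log2 units. Points are arrays, and the horizontal mark and bars are the mean and SD (n = 5). H2BC3, H3C12, H1-5, H2AC12, H4C9, H2AC21, H2AX and H2AZ2 show groups that do not overlap, while H3C11, MACROH2A1, H1-10 and H4C16 overlap.

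Calls were fewer among dim rows. Of the 51 replication-dependent genes, 42 had a mean above 5.52, the upper bound of the dimmest of 3 equal parts of all rows, and 39 of these were lower (15.8% of rows at such levels), with a median of -1.13. The 3 others were H2AC25, H3C11 and H4C2. Among the 9 dimmest members only H1-6 was called (2.78% of rows at such levels), and their median was 0.07. No filter on low values was applied to the count of 51. The table carries no detection calls, so the dim rows may hold no more than background. Of 15 members with a mean of at least 10, 13 were lower, with a median of -1.33 (12.2% of rows at that level). Both cuts use the mean over the 10 arrays, so a fallen member can clear them through its ctrl values alone. Examples are H2BC3 at 5.52 (means of 4.56 after paraquat and 7.68 in ctrl cells) and H1-5 at 10 (8.89 and 11.35). The shares above each cut are thus no independent support for the fall. The 4 germ cell genes of the clusters (H1-6, H2AC1, H2BC1 and H3-4) all belong to the dim group.

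**Figure D3:**
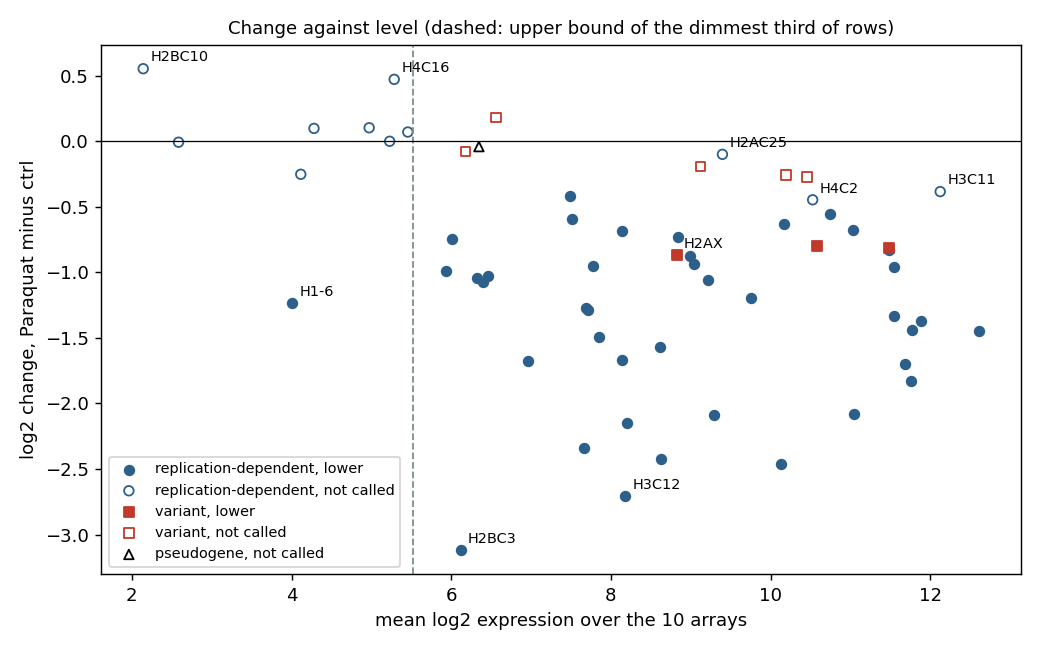
Log2 change, paraquat minus ctrl (vertical axis), against mean log2 expression over the 10 arrays (horizontal axis) for the 60 histone genes. Left of the dashed line at 5.52 only H1-6 is called lower. Right of it the open blue circles are H2AC25, H4C2 and H3C11.

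Among the variants all 3 calls were in class H2A, where the median of the 5 measured was -0.80, against -0.69 for the 11 replication-dependent H2A genes. Class H1 variants had a median of -0.08, against -1.21 for replication-dependent H1. That median is the value of H1-8, an oocyte gene. H1-8 and the spermatid gene H1-7 had means of 6.18 and 6.56, above 41.1% and 45.9% of all rows. Without detection calls, both may hold no more than background. H2AX, which is phosphorylated at DNA breaks and whose gene gives both a stem-loop and a polyadenylated message, read 8.32, 8.61, 8.28, 8.40 and 8.34 in paraquat-treated cells, against 8.91, 9.25, 9.50, 9.34 and 9.29 in ctrl cells (3394183). The groups were apart, with a 1.82-fold fall (-0.87 ± 0.11 SE, adjusted p = 0.000352). H2AZ2 (3048869), a form of the variant found at promoters, stood at 10.18, 10.57, 10.24, 9.88 and 10.02 after paraquat and at 11.20, 11.26, 10.78, 10.72 and 10.93 in ctrl cells (-0.80 ± 0.15 SE, adjusted p = 0.00307). Its groups did not overlap either. H2AZ1 (2779486), encoding the near-identical partner protein, read 10.88, 11.76, 10.93, 10.67 and 11.12 after paraquat, against 11.97, 12.58, 11.41, 11.67 and 11.78 in ctrl cells. Paraquat 12 lay among the ctrl arrays, the change was -0.81 ± 0.24 (SE, adjusted p = 0.0334), and the call was lost with any 1 of 7 arrays left out (ctrl 7, 11 or 19, or Paraquat 8, 14, 18 or 20), with adjusted p up to 0.0811 among these.

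The macroH2A variants, which carry a large extra domain and mark repressed chromatin, did not pass. MACROH2A1 (2876479) read 10.26, 10.45, 10.52, 10.09 and 10.27 after paraquat, against 10.52, 10.84, 10.58, 10.51 and 10.51 in ctrl cells (-0.27 ± 0.11 SE, adjusted p = 0.103). MACROH2A2 (3250602) read 10.11, 10.14, 10.10, 10.03 and 9.92 after paraquat and 10.16, 10.57, 10.29, 10.39 and 10.19 in ctrl cells (-0.26 ± 0.10 SE, adjusted p = 0.0825). The MACROH2A2 groups just failed to overlap, by the small gap between Paraquat 12 and ctrl 7. Both were called lower with array weights (adjusted p = 0.0357 for MACROH2A1 and 0.0205 for MACROH2A2). That setting called 16.3% of all rows lower, against 11.5% in the main fit.

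The 3 measured H1 variants also did not pass. H1-10 (2694675), a somatic linker variant, stood at 8.80, 8.80, 9.40, 9.09 and 9.05 after paraquat, against 8.91, 9.13, 9.48, 9.29 and 9.29 in ctrl cells (-0.19 ± 0.14 SE, adjusted p = 0.409). H1-7 (3413456), known from spermatids, read 6.59, 6.85, 6.21, 6.83 and 6.78 after paraquat and 6.53, 6.47, 6.49, 6.48 and 6.38 in ctrl cells (0.18 ± 0.12 SE, adjusted p = 0.367). Only Paraquat 14 lay below the ctrl arrays of H1-7, and without it H1-7 was called higher (0.29, adjusted p = 0.0338). H1-8 (2641794), the oocyte linker histone, read 5.96, 6.24, 6.18, 6.08 and 6.25 after paraquat and 6.32, 6.11, 6.31, 6.04 and 6.33 in ctrl cells (-0.08 ± 0.09 SE, adjusted p = 0.659).

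No row carried H3-3A or H3-3B alone. A row assigned to both H3-3B and H3-5, genes of the replication-independent H3.3 type, read 10.04 ± 0.27 after paraquat and 9.94 ± 0.38 in ctrl cells (SD, n = 5 each), a change of 0.10 (adjusted p = 0.792). Of the 7 rows shared by several symbols that include a histone of this family, 2 were lower (11.5% of all rows). They were H3C4 with H2AC7 (-1.50, adjusted p = 0.000646) and H2BC12 with H2BC12L (-1.55, adjusted p = 0.00524). A row of H2AZ2 with FAM174B was not called (-0.43, adjusted p = 0.126). Nor were H2AC14 with H2AC13 (-0.92, adjusted p = 0.305), H2BC6 with H2BC9 (-0.06, adjusted p = 0.938) and H2BC18 with H3C13 and H2BP1 (0.22, adjusted p = 0.44).

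Whether the brightest replication-dependent gene of a class and each of its variants moved by different amounts was tested within arrays. The test is of single genes, and H2AC21 (-1.44) lies below its class median of -0.69. In class H1 and class H2A the brightest replication-dependent gene was set against each measured variant as a log2 ratio on the same array, which gave 8 pairs. The ratio itself also reflects probe brightness, so only its difference between groups is read. The ratio of H1-4 to H1-10 was 2.77, 2.11, 1.80, 1.79 and 1.65 in paraquat-treated cells, against 3.63, 3.43, 3.01, 3.20 and 3.08 in ctrl cells. It was lower in all 5 paraquat arrays (-1.25, exact two-sided permutation p = 0.00794, adjusted p = 0.0106 over the 8 pairs, where 0.00794 is the smallest p that 5 against 5 arrays allow). H1-4 over H1-7 and over H1-8 differed by -1.62 and -1.36 with the same exact p and adjusted p. H1-7 and H1-8 may hold no more than background, so the ratios to them may describe H1-4 alone.

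In the pairs of H2AC21 the ratio was lower after paraquat against each H2A variant. Its ratio to MACROH2A2 was 1.97, 1.75, 1.67, 1.80 and 1.94 after paraquat, against 3.17, 3.002, 2.85, 3.09 and 2.93 in ctrl cells, a difference of -1.18 (exact permutation p = 0.00794, adjusted p = 0.0106). Against MACROH2A1 the difference was -1.17 and against H2AZ2 it was -0.64, with the same exact p and adjusted p. Against H2AX it was -0.58 (exact permutation p = 0.0159, adjusted p = 0.0181) and against H2AZ1 -0.63 (exact permutation p = 0.0397, adjusted p = 0.0397), and in both the arrays overlapped. Neither of the last 2 held throughout. The H2AX pair lost its call without ctrl 11 and Paraquat 12 together (-0.46, adjusted p = 0.0571), and the H2AZ1 pair lost it in 7 of the 10 cases that left out 1 array, with adjusted p up to 0.0794. No H3 pair could be formed, since no H3 variant had a row of its own.

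**Figure D4:**
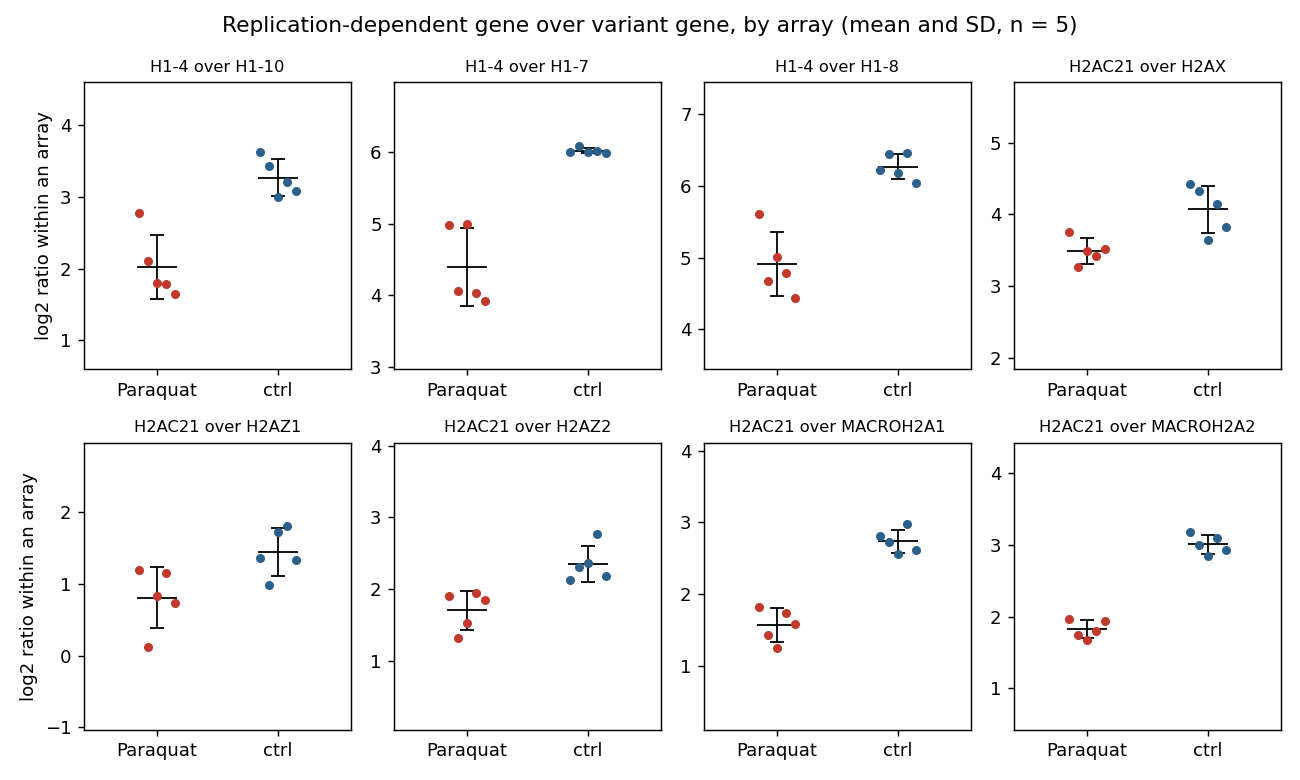
Log2 ratio of a replication-dependent histone gene to a variant of its class on each array, paraquat arrays left and ctrl arrays right, with mean and SD (n = 5), in panels that each span 4 log2 units. The groups are apart in 6 of the 8 pairs and overlap for H2AC21 over H2AX and over H2AZ1.

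The clusters hold genes whose promoters carry class-specific elements, and the stretches before the starts of some members are shown to set the fallen genes beside those that did not pass. Of the 60 genes, 54 had a promoter in the RefSeq table of build GRCh38.p14. H3C12, H3C11, H2AC12, H4C1 and H4C3 were among those without one. In the 250 bases before the start, both strands were searched for ATTTGCAT, the octamer bound by POU factors, for CCAAT, the CCAAT box, for TATAAA, the TATA box, and for GGTCCG, the core of an H4 promoter element bound by HINFP. None of the 4 motifs contains another, and a match is a description of the letters, not of a bound site.

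GGTCCG was present in 8 of 9 H4 promoters, 44 to 46 bases before the start in each, against 9.33% of all 27305 promoters. H4C7 was the H4 gene without it. It was in 0 of 6 H1, 0 of 10 H2A, 1 of 13 H2B and 1 of 8 H3 promoters, and in 2 of 8 variant promoters. One of those was H1-10, which has the letters 46 bases before the start on its own strand and was not called, and the other was MACROH2A2. Of the 8 H4 genes with the letters, 5 were called lower (11.5% of all rows) and 3 (H4C2, H4C6 and H4C16) were not. H4C7, without them, was not called either. The 3 H4 stretches below are those of the H4 gene with the lowest change with every array in the fit, of one with a fall of 0.95 and of H4C16, with the 150 bases before the start on the gene's strand and GGTCCG in capitals. H4C9 is at chr6:27139132-27139281 (plus strand), H4C5 at chr6:26204460-26204609 (plus) and H4C16 at chr12:14771132-14771281 (minus).
H4C9: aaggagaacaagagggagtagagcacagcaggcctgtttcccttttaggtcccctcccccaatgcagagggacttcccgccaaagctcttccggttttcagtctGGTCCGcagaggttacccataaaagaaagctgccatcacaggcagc
H4C5: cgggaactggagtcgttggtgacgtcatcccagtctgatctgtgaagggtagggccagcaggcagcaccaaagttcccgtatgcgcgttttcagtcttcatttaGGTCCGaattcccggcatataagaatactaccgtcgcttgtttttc
H4C16: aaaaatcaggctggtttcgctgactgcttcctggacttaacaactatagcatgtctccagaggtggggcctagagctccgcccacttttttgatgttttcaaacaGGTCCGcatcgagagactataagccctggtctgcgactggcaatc

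The octamer ATTTGCAT was present in 8 of 10 H2A and 10 of 13 H2B promoters, in 0 of the H1, H3, H4 and variant promoters, and in 1.66% of all promoters. Of the 18 genes with it, 15 were lower (11.5% of all rows), and 3 were not called (H2AC1, H2BC1 and H2BC10). Among the 46 replication-dependent genes with a promoter, 21 without the octamer were lower too, including 1 H2A and 3 H2B genes. The median change of the 46 was -1.05 with the octamer and -0.96 without it. H2BC3, the H2B gene with the lowest change, and H2BC1, which did not pass, are shown with the octamer in capitals, as the 150 bases before the start on the gene's strand. H2BC3 is at chr6:26043714-26043863 (minus) and H2BC1 at chr6:25726627-25726776 (plus).
H2BC3: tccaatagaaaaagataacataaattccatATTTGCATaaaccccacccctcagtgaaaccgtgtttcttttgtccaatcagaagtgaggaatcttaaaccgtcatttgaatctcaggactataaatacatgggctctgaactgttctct
H2BC1: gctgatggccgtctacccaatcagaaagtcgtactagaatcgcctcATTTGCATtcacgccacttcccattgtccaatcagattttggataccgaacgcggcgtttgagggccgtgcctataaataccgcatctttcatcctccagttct

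Some H2A and H2B genes lie head to head, and their shared promoter then counts for both. In 7 measured pairs the starts were fewer than 300 bases apart, and in 5 of these both genes were lower, in 1 only H2BC26 was (with H2AC25, -0.93 and -0.10), and in 1 neither was (H2AC1 and H2BC1). H2BC8 and H2AC8 fell by 1.27 ± 0.18 and 0.63 ± 0.16, H2BC4 and H2AC6 by 1.67 ± 0.27 and 0.55 ± 0.16, and H2AC17 and H2BC17 by 1.07 ± 0.26 and 1.03 ± 0.17 (SE). Whether partners differed was not tested. The 232 bases between the starts of H2BC8 (minus strand) and H2AC8 (plus strand), at chr6:26216689-26216920, are given on the plus strand with the octamer, here as its reverse complement, in capitals.
H2BC8 to H2AC8: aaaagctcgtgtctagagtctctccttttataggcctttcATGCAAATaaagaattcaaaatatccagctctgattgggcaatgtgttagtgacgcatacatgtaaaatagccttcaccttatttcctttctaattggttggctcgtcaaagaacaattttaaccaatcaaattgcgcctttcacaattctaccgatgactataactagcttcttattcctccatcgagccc

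CCAAT was in 6 of 6 H1, 10 of 10 H2A, 13 of 13 H2B, 8 of 8 H3 and 3 of 9 H4 promoters of replication-dependent genes, in 5 of 8 variant promoters and in 33.0% of all promoters. In H1 the nearest match on the gene's strand lay 53 to 57 bases before the start in all 6 genes. The 3 variants called lower, H2AX, H2AZ1 and H2AZ2, all had a match, and the 2 macroH2A promoters, each by its first listed start, had none. H1-7 and H1-8 also had a match and were not called, so a match did not set apart the variants that fell. H2AX at chr11:119095466-119095615 and H2AZ1 at chr4:99950276-99950425, both on the minus strand, are shown as the variants that fell, with CCAAT or its complement ATTGG in capitals. TATAAA was in 30 of 46 replication-dependent and 3 of 8 variant promoters, against 11.1% of all promoters.
H2AX: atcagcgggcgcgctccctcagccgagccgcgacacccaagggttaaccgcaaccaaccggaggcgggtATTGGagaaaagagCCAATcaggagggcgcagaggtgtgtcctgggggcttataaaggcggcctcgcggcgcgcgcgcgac
H2AZ1: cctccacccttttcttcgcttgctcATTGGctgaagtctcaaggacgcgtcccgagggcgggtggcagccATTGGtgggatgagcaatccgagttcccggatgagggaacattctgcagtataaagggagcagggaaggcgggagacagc

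Genes called lower lay on both chromosome 6 and chromosome 1. Of 45 replication-dependent genes on chromosome 6, which holds the largest cluster, 37 were lower (11.5% of all rows). Their median was -1.06, and 25 were at least 2-fold lower (1.83% of all rows). Of 5 on chromosome 1, 3 were lower (H2AC21, H2BC21 and H2BC26), with a median of -0.42 over the 5 and 1 at least 2-fold lower. Their changes ran from -1.44 for H2AC21 to 0.07 for H3-4, which is among the dim rows. Whether chromosomes 6 and 1 differ in size of change was not tested. The 1 gene on chromosome 12 was H4C16.

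Genes that make, process and deliver histones were read against 11.5% of all rows called lower and 8.51% called higher. Of 19 measured genes of histone transcription and 3′ end processing, 3 were lower and 2 higher, with a median of -0.11, which is close to those shares and not a result about the list. CASP8AP2, also called FLASH, a scaffold of the histone locus body, fell by 0.79 ± 0.16 (SE, adjusted p = 0.00537), the cleavage factors CSTF2T and CPSF2 fell by 0.49 and 0.42, and ZNF473, which acts with the U7 particle in 3′ end cleavage, rose by 0.77 ± 0.12 (adjusted p = 0.00107). HINFP, the factor known to bind the H4 element, rose by 0.54 ± 0.09 (adjusted p = 0.00142). SLBP itself had 8.27 ± 0.19 after paraquat and 8.65 ± 0.47 in ctrl cells (SD, n = 5 each), a change of -0.38 (adjusted p = 0.235). NPAT, the cyclin E target that switches on histone transcription, and POU2F1, an octamer-binding factor, had no row of their own.

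Among 16 genes listed with the replication-coupled histone chaperones, some of which deposit new histones behind the fork, 6 were lower and 0 higher, with a median of -0.34. MCM2, among those 6, is also counted in the S phase list. ASF1B fell by 1.16 ± 0.15 (adjusted p = 0.000302), NASP, which holds the soluble H3 and H4 pool, by 1.14 ± 0.15 (adjusted p = 0.000343), and the chromatin assembly factor subunits CHAF1B and CHAF1A by 0.64 and 0.59. The paralogue ASF1A had a change of 0.03 (adjusted p = 0.965). Of 15 chaperones and remodellers of variants, 6 were lower and 1 higher, with a median of -0.20. ANP32E, which removes H2A.Z, fell by 1.44 ± 0.23 (adjusted p = 0.00103), OIP5 and HJURP, which load the centromeric histone, by 1.03 and 0.57, and CABIN1, a subunit of the HIRA complex, by 0.62. For the H3.3 chaperone DAXX the change was -0.13 (adjusted p = 0.578), ATRX fell by 0.54 (adjusted p = 0.0459), and INO80 rose by 0.29. HIRA had no row of its own. That list also holds LEMD3, an inner nuclear membrane protein (0.03). A list of 9 further histone genes was named by older symbols, some of which now match the naming rule. Of its 4 measured genes 2 were lower and 0 higher (median -0.44), and 1 of those lower, H2BC26, is already counted among the 51. The older symbol H4-16 was read as H4C14, which had no row of its own, so H4C16 (0.47) is counted among the 51 and not in this list. CENPA, the centromeric H3 variant, fell by 1.57 ± 0.14 (adjusted p = 2.23e-05), whereas H2AJ and H2BW1 had changes of 0.07 and 0.06.

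**Figure D5:**
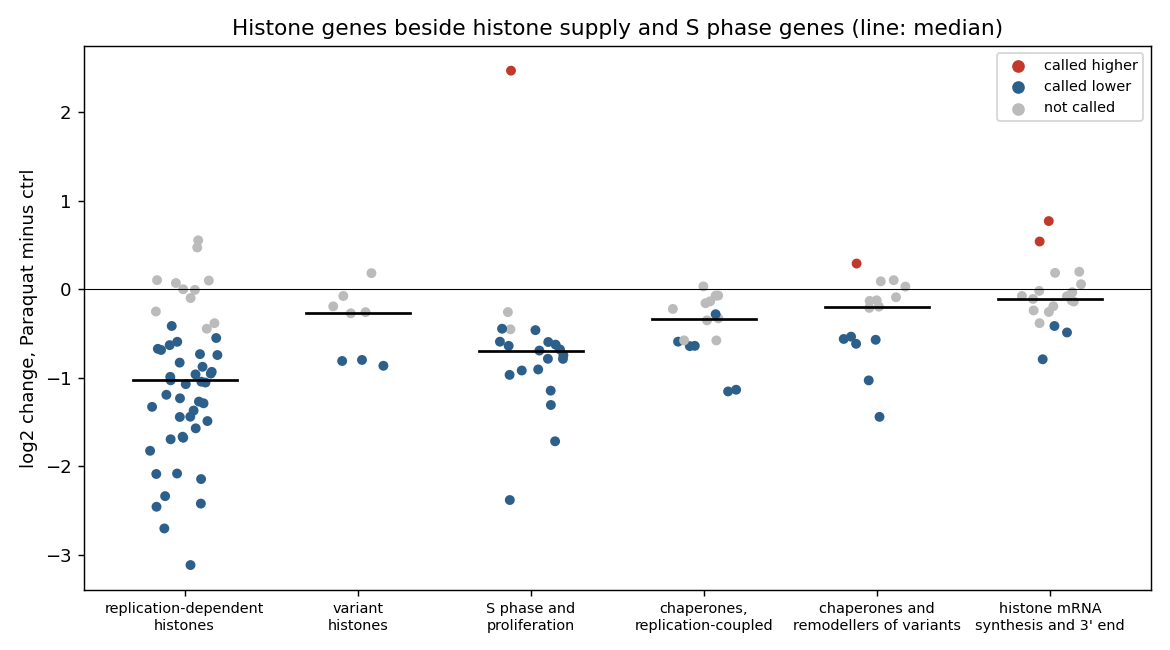
Log2 change, paraquat minus ctrl, of each gene of the replication-dependent and variant histones, the S phase list and 3 lists of histone supply genes, with the median of each as a line. Medians are -1.03, -0.27, -0.69, -0.34, -0.20 and -0.11 from left to right.

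Single arrays stood apart in these genes. Ctrl 11 was the highest ctrl array in 42 of the 51 replication-dependent genes, against 32.3% of all rows, with a median deviation of 0.44 from its group's mean. Ctrl 19 was the lowest ctrl array in 30 of the 51, against 27.1% of all rows. In the treated group Paraquat 8 was the highest in 29 of the 51, against 15.4% of all rows, with a median deviation of 0.26. Ctrl 11 also had the lowest array weight of the 10 (0.358). Without ctrl 11 and Paraquat 12, 37 of the 51 were lower (11.5% of all rows), all of them among the 40 called with every array. The median was then -0.89. Replication-dependent members of the same class have similar coding sequences, so a row may also bind messages of relatives in that class. The value of any 1 member is therefore uncertain.

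Marker lists were read against 11.5% of all rows called lower and 8.51% called higher. Of the markers of sympathetic neuroblasts, 8 of 12 were measured, and 7 fell. Their array means were 8.67 to 8.93 after paraquat and 9.53 to 9.68 in ctrl cells. The leukocyte marker PTPRC stayed at the bottom of the scale (2.72 ± 0.09 after paraquat and 2.67 ± 0.08 in ctrl cells), while CD68 and CD14 of the same 4-gene list rose by 1.33 and 0.64, and the list's array means were 5.02 to 5.21 after paraquat and 4.48 to 4.74 in ctrl cells. Of 8 stromal markers SNAI2 alone rose, by 1.97 (array means 8.23 to 8.57 after paraquat and 8.07 to 8.21 in ctrl cells). None of 3 glial markers passed (4.61 to 5.26 after paraquat and 4.56 to 5.09 in ctrl cells), nor any of 3 endothelial markers (3.69 to 3.9997 after paraquat and 3.76 to 3.91 in ctrl cells). Their part in the histone result was not tested.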

How the data were processed

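Total RNA of 10 samples was depleted of ribosomal RNA, biotin-labelled and measured on Affymetrix exon arrays, per the labels' protocols. The deposited values are log2 expression from RMA, per the submitters' processing notes. Software version, summary level and build were not given in the sources used here. RMA values can understate changes of dim rows.

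Rows were named from GEO's platform annotation through gene identifiers and the RefSeq table of GRCh38.p14. No histone gene had more than 1 row of its own. Each of the 22011 rows was fitted with limma 3.58.1 (R 4.3.3), paraquat minus ctrl, with no covariate, filter or further scaling, and tested two-sided with Benjamini-Hochberg adjustment over all rows, at 0.05. Adjusted p-values are from this limma model unless a permutation test is named. Standard errors had a median of 0.13 on the log2 scale, a precision limited by how many arrays there are.

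The members, lists and tests were chosen with earlier results of these data known. Named with every array were the 2 called members of each class with the largest change, the brightest member and all variants. Members not called were also named, and H4C16 was given array by array after its values were seen, as were other members outside this rule. Alternatives are given in the closing section.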

Additional observations from a re-analysis of the deposited data

Results flagged for a closer look

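Among 42 groups of 5 arrays, those of the genes given array by array by rule, 3 held an array far from the other 4 by Dixon's criterion, and chance gives about 1 such group in 20. H2BC3 in paraquat 18 was 2.60, against 4.84 to 5.40 on the other paraquat arrays. H2BC3 in ctrl 11 was 8.91, against 7.26 to 7.47 on the other ctrl arrays. MACROH2A1 in ctrl 11 was 10.84, against 10.51 to 10.58 on the other ctrl arrays.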

How the results depend on the processing

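The settings were quantile normalization, median centring, array weights, only rows with a mean above 5.52, all arrays but ctrl 11 and Paraquat 12, each array left out in turn, a minimum fold of 1.2, an adjusted p under 0.01, and leaving out the germ cell members or H2AX. Replication-dependent genes called lower numbered 26 at the minimum fold of 1.2 (4.15% of all rows) and 29 at an adjusted p under 0.01 (6.47% of all rows). They numbered 39 without the germ cell members, and 36 to 41 with 1 array left out (8.70% to 12.0% of all rows). Genes of this kind called higher numbered 1 with array weights and 1 without ctrl 11 and Paraquat 12, and 0 to 1 with 1 array left out. Variants called lower numbered 5 with array weights (16.3% of all rows), 2 at an adjusted p under 0.01 and 2 without H2AX. With 1 array left out, 2 to 3 variants were called lower and 0 to 1 higher. The difference of H2AC21 over H2AX was -0.46 without ctrl 11 and Paraquat 12, past the threshold no longer, and that of H2AC21 over H2AZ1 ran between -0.75 and -0.46 with 1 array left out. The causes were not tested, except that a minimum fold asks more of small changes by construction. Among replication-dependent genes, calls lost with 1 array left out were of H2AC6, H2BC21, H3C7 and H4C3. The median of the replication-dependent genes ran between -1.11 and -0.88 with 1 array left out. No direction of a called value was reversed in these settings. Averaging or counting several rows of a gene gave the same values, since each member has 1 row. The titles give the groups no shared numbers, but they run consecutively (ctrl 7 and Paraquat 8, and so on), and whether this marks pairs is not in the labels. Deviations from the group means correlated between 0.0912 and 0.461 within such pairs, and 3 of 5 Paraquat arrays correlated best with their own neighbour. A replicate block of these numbers, added after seeing the data, called 14.3% of all rows lower. It left 40 replication-dependent genes lower (39 of them shared, with H3C7 lost and H4C2 gained), 1 higher (H4C16) and 3 variants lower. H2AZ1 passed with the block (adjusted p = 0.00216). The within-array ratios were not refitted with it, since 5 pairs cannot reach the threshold in an exact permutation test.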
